A study of Mus musculus with 9 samples.

Results

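Mitochondrial ribosomal proteins build the ribosome that translates the few mRNAs made inside mitochondria. Their genes were taken as the 71 of 22180 measured genes whose symbol is Mrpl or Mrps followed by a number and at most one letter a to c, 43 with a large-subunit name (Mrpl) and 28 with a small-subunit name (Mrps). The study compared RNA bound by Pum2, RNA bound by nonspecific IgG and total input RNA in the cortex of mouse embryos. Pum2 groups are precipitates made with a rabbit antibody to Pumilio2, IgG groups are precipitates made with normal rabbit IgG, and input groups are total RNA with no antibody. All 3 groups came from freshly dissected cortices of wild-type CD1 embryos at embryonic day 12 to 13, with 3 arrays labelled as biological replicates in each, and carried no other treatment or allele. The values are log2 signals of the Mouse Gene 2.0 ST array. An array that has been normalized as a whole shows the share of a transcript among the RNA on that array and not its amount. A difference therefore says how one transcript stood relative to the rest.

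As background, the ribosome of mitochondria has a large subunit, which joins amino acids, and a small subunit, which reads the mRNA. All of its proteins are encoded in the nucleus, translated in the cytosol and imported. Many have a counterpart in bacterial ribosomes and the others are particular to mitochondria. In yeast, the Pumilio-family protein Puf3 binds mRNAs of mitochondrial proteins, those of mitochondrial ribosomal proteins among them. Mammalian Pum2 binds mRNAs and represses their translation, and neural precursors and young neurons differ in how far they rely on mitochondrial respiration.

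The promoters of these genes are shown first, since the choice by name did not use them and some short motifs stood in them more often than in other promoters. Of the 71 genes, 62 had a promoter window in RefSeq (GRCm38.p6), from 250 bases before to 50 bases after the start that the promoter table uses. The letters CCGGAAG, part of the sites of ETS factors such as GABPA, occurred on either strand in 23 of the 62 (37.1%), against 9.93% of 27025 genes with a window. The letters of an NRF1 site, GCGCA and GCGC with 1 base of any kind between them, occurred in 11 (17.7%), against 5.19%, and AAGATGGC, a YY1 core, in 12 (19.4%), against 3.19%. At least 1 of the 3 stood in 38 of 62 (61.3%), against 16.4% of all genes, and the other 24 windows held none of them. GABPA, NRF1 and YY1 are known as regulators of nuclear genes for mitochondrial proteins. The same ETS letters stood in 44.0% of the 50 windows of cytosolic ribosomal protein genes. Among members that were higher, lower or not called in Pum2 over IgG, they stood in 6 of 16, 7 of 16 and 10 of 30.

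The 6 windows below each hold the 100 bases before that start on the strand of the gene, with the matched letters in capitals. The start used is the outermost start of the annotated gene in Mrps22, Mrpl52 and Mrpl34, and lies 19 bases inside the gene in Mrps27, 182 in Mrpl9 and 1621 in Mrpl22. Mrps27, Mrpl22, Mrpl9 and Mrps22 were the members highest in Pum2 over IgG, and Mrpl52 and Mrpl34 were among the lowest. Mrpl42 and Mrps21, which were lower still, are not shown. Each of the 6 windows shown holds a match, whereas 24 of the 62 member windows held none. Mrps27 lies at chr13:99344686-99344785 (+ strand), Mrpl22 at chr11:58171564-58171663 (+ strand), Mrps22 at chr9:98601680-98601779 (- strand), Mrpl9 at chr3:94443236-94443335 (+ strand), Mrpl52 at chr14:54426809-54426908 (+ strand) and Mrpl34 at chr8:71464826-71464925 (+ strand). The capitals mark the NRF1 letters in Mrpl9 and the ETS letters in the others.
Mrps27: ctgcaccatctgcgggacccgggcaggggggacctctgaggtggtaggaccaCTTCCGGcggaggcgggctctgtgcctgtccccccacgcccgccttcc
Mrpl22: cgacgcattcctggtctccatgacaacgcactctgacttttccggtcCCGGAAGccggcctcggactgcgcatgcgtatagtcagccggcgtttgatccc
Mrps22: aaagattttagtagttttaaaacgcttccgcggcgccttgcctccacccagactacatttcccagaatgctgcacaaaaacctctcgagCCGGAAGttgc
Mrpl9: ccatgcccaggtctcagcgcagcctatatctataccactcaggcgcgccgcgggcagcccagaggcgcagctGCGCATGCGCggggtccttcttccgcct
Mrpl52: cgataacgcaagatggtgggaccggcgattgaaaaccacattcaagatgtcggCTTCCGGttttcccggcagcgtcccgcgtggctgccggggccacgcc
Mrpl34: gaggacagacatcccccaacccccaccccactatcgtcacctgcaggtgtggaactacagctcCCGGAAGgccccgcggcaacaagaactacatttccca
The ETS letters stood in front of members that moved either way in the precipitates. A match describes letters and shows no binding.

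The members were well measured. Their mean over the 9 arrays lay between 5.06 (Mrps36) and 11.18 (Mrps16), and 69 of 71 were at or above the median of all genes, 6.08. Mrps16, Mrpl39 and Mrpl24 had the highest means, 11.18, 10.58 and 10.48, and Mrps36, Mrpl27 and Mrps14 the lowest, 5.06, 5.67 and 6.25. Signals of different probes do not order the amounts of different mRNAs. The median SD of a member between replicates was 0.0803 in Pum2, 0.107 in IgG and 0.0691 in input arrays (log2, n = 3 each). The widest spread was that of Mrpl32 in IgG arrays, 0.411. Across the 71 genes, which are not independent replicates and share arrays, Pum2 arrays correlated with IgG arrays at r of 0.889 to 0.925 and with input arrays at 0.855 to 0.887, and IgG with input at 0.965 to 0.98. Arrays of the same group correlated at 0.987 to 0.995.

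Of 12 cortical markers listed, 11 were measured, with array medians between 9.92 and 10.34, far above the array medians of all genes. Markers of other cells were present too. The 5 endothelial markers had array medians of 8.59 to 8.96 with Pum2, 8.0 to 8.44 with IgG and 8.29 to 8.50 in input, and 3 of 5 were higher in Pum2 over IgG. The 5 meningeal markers had medians of 8.16 to 8.35 with Pum2, 7.80 to 8.03 with IgG and 7.38 to 7.68 in input, with 2 of 5 higher. In Pum2 over input, 4 of 5 endothelial, 5 of 5 meningeal and 7 of 11 cortical markers were higher, and 2 of the 11 cortical markers were lower. Over IgG, 3 of the 11 cortical markers were higher and 1 lower. Of 4 red cell precursor markers listed, 2 were measured and 0 were called in either comparison. Over IgG, microglial markers were higher in 2 of 5, and those of the ganglionic eminence were higher in 1 and lower in 1 of 5. Among all genes 19.4% were higher and 11.4% lower in Pum2 over IgG, and 21.6% were higher and 13.1% lower in Pum2 over input. The part of these cells in the results below was not tested. All 3 groups came from the same kind of tissue, and signals of bulk RNA do not give the number of cells of a type.

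The first comparison, of the Pum2 precipitate with the nonspecific IgG precipitate, asks which mRNAs were held by Pum2 beyond the background of the method. Mitochondrial ribosomal protein mRNAs went both ways. Of 71, 19 were higher and 17 lower with Pum2 (26.8% and 23.9%; limma, adjusted p under 0.05 over 22180 genes), and 35 were not called. Of all genes, 19.4% were higher and 11.4% lower, and among genes at or above the median level 34.1% and 18%, so the share of members called higher lay above that of all genes and below that of the brighter genes. The median difference was 0.07 over the members, against 0.04 over all genes (log2). Left out singly, IgG replicate 2, Pum2 replicate 3 and Pum2 replicate 1 moved the median of the members to 0.022, 0.032 and 0.10. Called changes of at least 1.5-fold numbered 7 higher and 8 lower among the members, where 6.53% and 4.99% of all genes were that far higher and lower. Among the 11090 genes at or above the median level, 1365 were that far higher and 871 that far lower. The split depended on how arrays were scaled. It was 14 higher and 24 lower with quantile normalization run again over genes, and 14 and 23 after centring each array on brighter genes. In these 2 settings the median was -0.028 and -0.025 over the members, against 0.026 and -0.051 over all genes. The median of the members thus lay below that of all genes with quantile normalization. It also lay below without IgG replicate 2 (0.022 against 0.041) and without Pum2 replicate 3 (0.032 against 0.046). Among genes at or above the median level, the median was 0.08 over the members, against 0.12 over all such genes.

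The mRNA that rose most was Mrps27, which encodes an RNA-binding protein of the small subunit. Its log2 signals were 8.36, 8.27 and 8.50 with Pum2, against 7.34, 6.96 and 6.98 with IgG and 7.53, 7.36 and 7.41 in input. All 3 Pum2 values lay above all others, by 1.28 ± 0.11 over IgG (2.43-fold, limma adjusted p = 2.96e-05) and by 0.94 ± 0.11 over input (adjusted p = 1.07e-04). Mrpl22, whose protein lines the tunnel through which new peptides leave, had 9.22, 9.18 and 9.26 with Pum2, 8.44, 8.33 and 8.34 with IgG and 8.87, 8.87 and 8.88 in input. It rose by 0.85 ± 0.07 over IgG (adjusted p = 1.59e-05) and by 0.35 ± 0.07 over input (adjusted p = 0.00231). Mrpl38, a protein of the central protuberance, had 9.79, 9.79 and 9.75 with Pum2, 9.06, 9.05 and 9.16 with IgG and 9.40, 9.42 and 9.41 in input. It rose by 0.69 ± 0.07 and 0.37 ± 0.07 (adjusted p = 4.80e-05 and 0.00153). These were the 3 members called higher with Pum2 than in either control. The groups did not overlap for any of them. Of all genes, 19.4% were higher than with IgG and 21.6% higher than in input. The share of all genes higher than both was not counted, so whether 3 members are few or many cannot be told. A dim row shared by Mrps27 and 6430562O15Rik did not rise over IgG (-0.07 ± 0.07, limma over all rows, adjusted p = 0.531).

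The other 16 members that rose over IgG were not called higher than input, and 6 of them were lower than input. The 6 were Mrpl2 (-0.30), Mrpl11 (-0.31), Mrpl49 (-0.24, a call that not every alternative kept), Mrps12 (-0.46), Mrps18b (-0.42) and Mrps23 (-0.34), and the other 10 were not called. The share of all genes with such pairs of calls was not counted. Mrpl9, a large-subunit protein with a bacterial counterpart, had 8.02, 8.07 and 7.98 with Pum2, 7.01, 7.18 and 7.42 with IgG and 7.83, 7.76 and 7.86 in input, with differences of 0.82 ± 0.10 from IgG and 0.20 ± 0.10 from input (adjusted p = 1.81e-04 and 0.152). All 3 Pum2 values of Mrpl9 lay above both other groups, although the difference from input was not called. Mrps22, a small-subunit protein particular to mitochondria, had 9.24, 9.06 and 9.53 with Pum2, 8.69, 8.43 and 8.50 with IgG and 8.97, 8.99 and 9.07 in input. Its Pum2 arrays lay above the IgG arrays and touched the input range, with differences of 0.74 ± 0.12 and 0.27 ± 0.12 (adjusted p = 9.80e-04 and 0.114). Mrpl4, which also reaches the exit tunnel, rose over IgG by 0.65 ± 0.07 (adjusted p = 1.19e-04), and its difference from input was 0.10 ± 0.07 (adjusted p = 0.375). Mrpl16, near the site of peptide bond formation, and Mrpl45, which holds the ribosome to the inner membrane, rose over IgG by 0.60 ± 0.09 and 0.54 ± 0.09 (adjusted p = 5.87e-04 and 0.00112). Against input they stood at 0.06 and 0.06 (adjusted p = 0.681 and 0.663), values that turned negative in both rescalings of the arrays.

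The mRNA that fell most was Mrpl42, a large-subunit protein particular to mitochondria. Its signals were 8.58, 8.68 and 8.51 with Pum2, against 10.36, 10.39 and 10.06 with IgG and 11.04, 11.21 and 11.06 in input. The 3 groups formed separate steps. Pum2 stood below IgG by a log2 difference of -1.68 ± 0.10 (3.21-fold lower, adjusted p = 4.10e-06), and below input by -2.52 ± 0.10 (5.72-fold, adjusted p = 1.69e-07). Mrps21, a small-subunit protein with a bacterial counterpart, had 6.32, 6.37 and 6.10 with Pum2, 7.25, 7.25 and 7.23 with IgG and 8.19, 8.29 and 8.28 in input. It differed by -0.98 ± 0.08 from IgG and -1.99 ± 0.08 from input (adjusted p = 2.53e-05 and 1.98e-07). Mrpl52, of the central protuberance, had 8.11, 8.07 and 8.33 with Pum2, 9.11, 9.13 and 8.89 with IgG and 10.08, 10.21 and 10.10 in input. Mrpl34, with a bacterial counterpart, had 8.66, 8.80 and 8.86 with Pum2, 9.70, 9.55 and 9.49 with IgG and 10.38, 10.34 and 10.18 in input. Their differences from IgG were -0.87 ± 0.10 and -0.81 ± 0.09 (adjusted p = 1.06e-04 and 1.05e-04). In each of these genes every Pum2 array lay below every IgG array, and every IgG array below every input array.

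**Figure D1:**
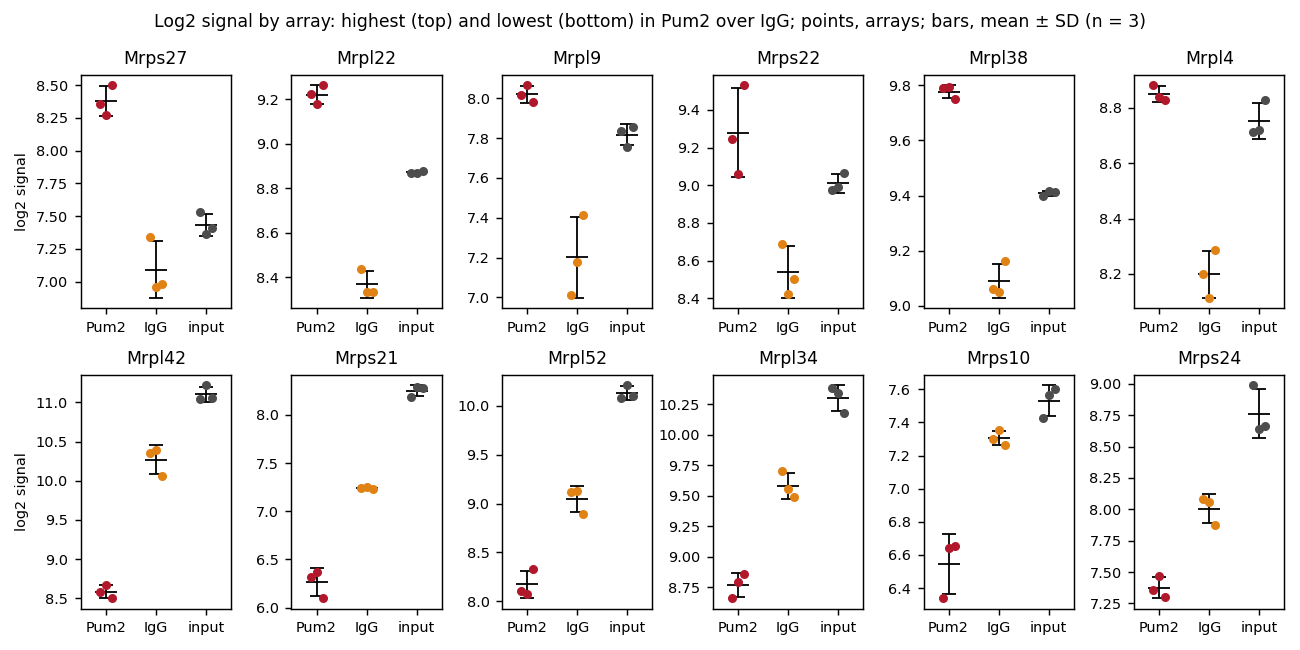
Log2 signal (vertical axis) of 12 members on the 3 Pum2, 3 IgG and 3 input arrays, each array a point and each bar the mean ± SD; scales differ between panels. In the top row Pum2 lies above IgG in all 6 genes, and in the bottom row below it, with input highest in all 6 genes of the bottom row.

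Mrps10, a protein of the head of the small subunit, had 6.34, 6.64 and 6.65 with Pum2, 7.30, 7.35 and 7.27 with IgG and 7.42, 7.56 and 7.60 in input. It fell by 0.76 ± 0.10 from IgG (adjusted p = 2.43e-04), whereas IgG differed from input by -0.22 ± 0.10 (adjusted p = 0.155). Mrps24 and Mrps18c, both with bacterial counterparts, also fell against IgG, with differences of -0.63 ± 0.11 and -0.61 ± 0.11 (adjusted p = 0.00142 and 0.002). Mrpl32 gave 6.88, 7.46 and 7.02 with Pum2 and 8.26, 7.75 and 7.45 with IgG, which overlap. Its call (-0.70 ± 0.21, adjusted p = 0.0253) ended without IgG replicate 1 or 2, without Pum2 replicate 1 or 3 and with only the compared arrays in the fit, with adjusted p up to 0.0984.

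Both subunits held members called in either direction. Of 43 Mrpl mRNAs, 12 were higher (27.9%) and 8 lower (18.6%), with a median of 0.08. Of 28 Mrps mRNAs, 7 were higher (25%) and 9 lower (32.1%), with a median of 0.04. Among all genes 19.4% were higher and 11.4% lower, and among genes at or above the median level 34.1% and 18%. The medians of both subunits turned negative in both rescalings of the arrays, and that of Mrps also without IgG replicate 2 (-0.07), where the Mrpl median was 0.042. Without Pum2 replicate 3 they were 0.043 for Mrpl and 0.018 for Mrps. Within the small subunit, 2 of 16 with a bacterial counterpart rose and 7 fell (median -0.19). Of the 9 particular to mitochondria 4 rose and 1 fell (median 0.28). The 4 were Mrps27, Mrps22, Mrps34 (0.49 ± 0.10) and Mrps23 (0.31 ± 0.08), and the exception was Mrps33 (-0.32 ± 0.10). The call of Mrps23 ended in 5 alternatives, both rescalings among them (adjusted p up to 0.12), and that of Mrps33 in 5 (up to 0.129). In the large subunit the corresponding counts were 6 and 5 of 27 (median 0.07) and 7 and 3 of 16 (median 0.14), where Mrps30 is counted with the large subunit. No test of a difference between these groups was made.

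By place in the large subunit, proteins around the peptide exit gave 2 higher and 0 lower of 6 (median 0.12), with Mrpl22 and Mrpl45 the 2 that rose and 1 lower at an unadjusted p under 0.05. Mrpl23 of the same site stood at -0.18 and Mrpl47 at 0.12, neither called (adjusted p = 0.124 and 0.326). The central protuberance gave 3 higher and 2 lower of 8, with Mrpl38 and Mrpl46 (0.54 ± 0.10) among the higher and Mrpl52 and Mrpl18 (-0.42 ± 0.07) the lower. The stalk, which receives translation factors, gave 1 higher and 0 lower of 4, with 1 lower at an unadjusted p under 0.05. Mrpl11 rose by 0.31 ± 0.07 (adjusted p = 0.00589), whereas Mrpl12, the protein that makes up the stalk itself, differed by -0.01 (adjusted p = 0.949). Over all genes 19.4% were higher and 11.4% lower, and over genes at or above the median level 34.1% and 18%. The central protuberance gave 37.5% and 25%, near the shares of those brighter genes. Its higher members also included Mrps30, whose call ended under 11 of the alternatives.

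**Figure D2:**
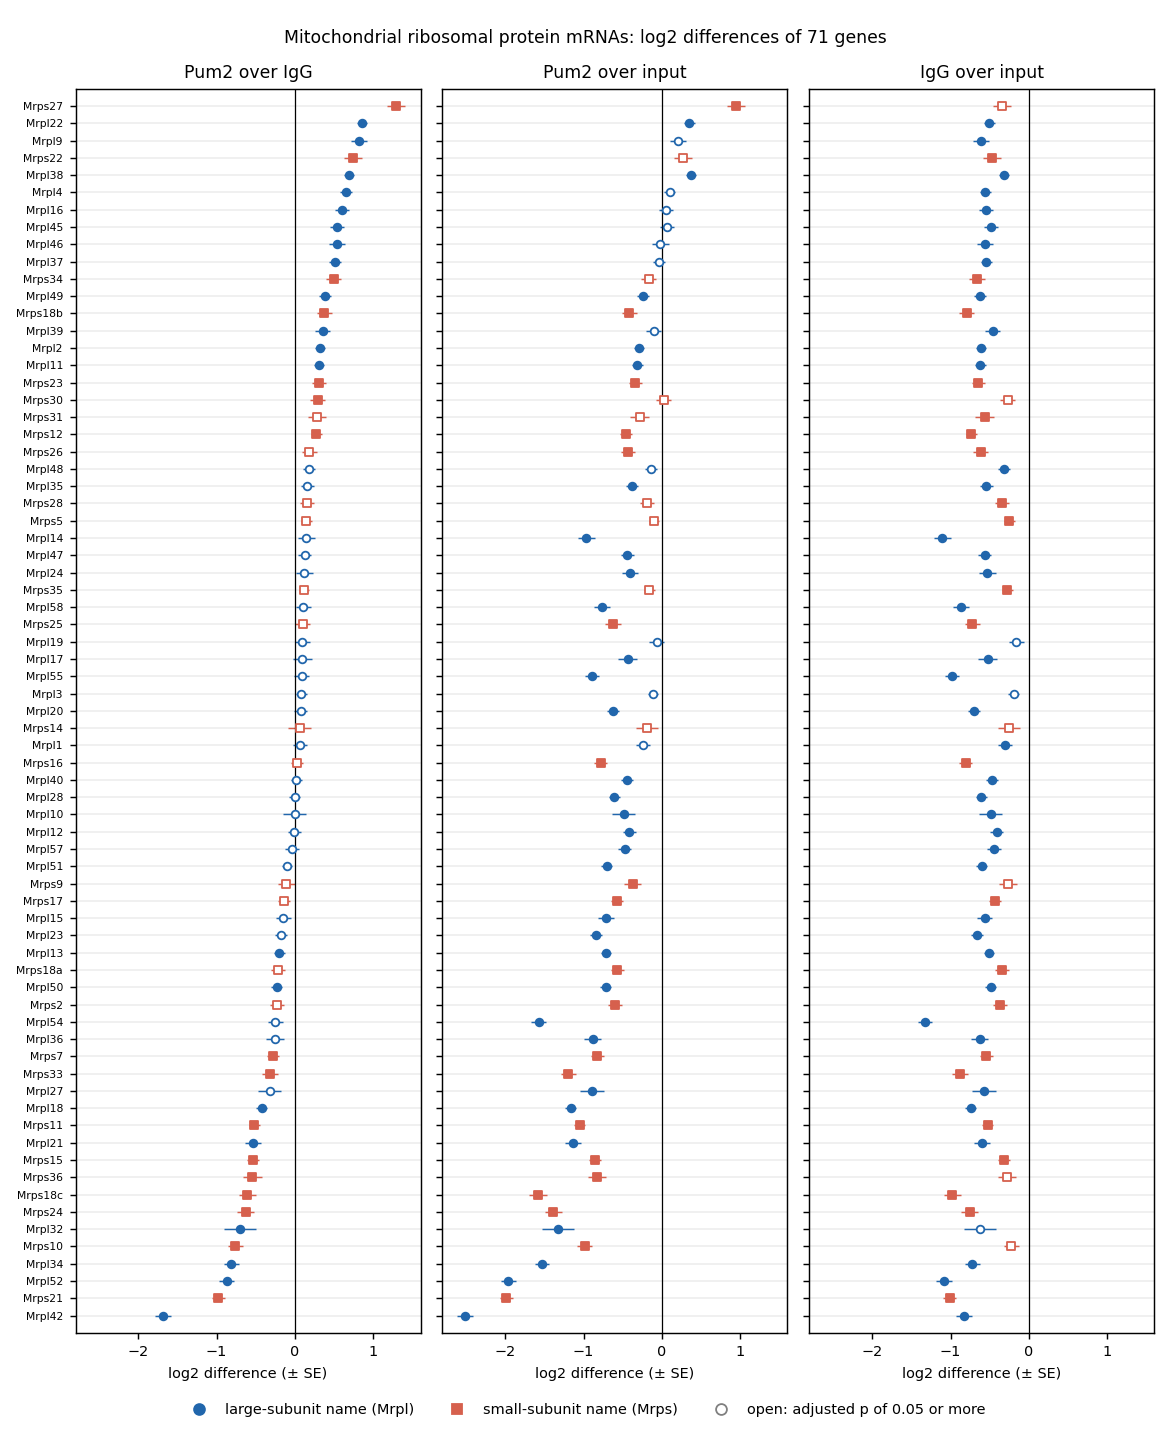
Log2 difference ± SE (horizontal axis) of each of the 71 members (rows, ordered by Pum2 over IgG) in the 3 comparisons. Circles are Mrpl and squares Mrps genes, filled where the adjusted p is under 0.05. Differences spread to both sides of 0 in Pum2 over IgG, from -1.68 (Mrpl42) to 1.28 (Mrps27), while all 71 lie below 0 in IgG over input.

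A few names do not match the place of the protein. Mrps30 and Mrps18a have small-subunit names, but their proteins lie in the large subunit, and Mrps36 is now known as a part of an oxoglutarate dehydrogenase. Mrps30 stood at 0.29 ± 0.09 over IgG (adjusted p = 0.0417), a call that ended under 11 of the alternatives, among them both rescalings, with adjusted p up to 0.202. Mrps18a differed by -0.22 ± 0.09 (adjusted p = 0.0895). The 3 relatives of one bacterial protein had different calls, since Mrps18b was higher by 0.37 ± 0.10 (adjusted p = 0.0138; 0.145 at most among the alternatives) and Mrps18c was lower. Second, dimmer rows of both genes were not called. That of Mrps18b stood at 0.04 ± 0.11 and that of Mrps18c at -0.34 ± 0.15 (limma over all rows, adjusted p = 0.828 and 0.129). Mrps36 fell by 0.54 ± 0.12 (adjusted p = 0.0053) at a dim signal. Of 5 ribosomal proteins listed under other names, Dap3, Ptcd3 and Gadd45gip1 were measured and all 3 were higher, by 0.26 ± 0.09, 0.49 ± 0.12 and 0.21 ± 0.07 (adjusted p = 0.0429, 0.0124 and 0.0456). Of all genes 19.4% were higher, and of genes at or above the median level 34.1%. Over input, 1 of these 3 was called higher.

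Against input, total RNA of the tissue, the Pum2 precipitate was poor in these mRNAs. Of 71, 49 were lower (69.0%) and 3 higher (4.23%), where 13.1% of all genes were lower and 21.6% higher. Among genes at or above the median level, 21.9% were lower and 37% higher. The median difference was -0.46, against 0.07 over all genes, and 31 members were called and at least 1.5-fold lower, against 6.97% of all genes. Of the 11090 genes at or above the median level, 1331 were that far lower. Of 43 Mrpl mRNAs 30 were lower (median -0.45) and of 28 Mrps mRNAs 19 (median -0.51). The 3 higher were Mrps27, Mrpl38 and Mrpl22. After Mrpl42, Mrps21 and Mrpl52, the lowest were Mrps18c (-1.58 ± 0.11), Mrpl54 (-1.57 ± 0.09) and Mrpl34 (-1.53 ± 0.09). Mrps12, of the decoding centre, fell by 0.46 ± 0.07 (adjusted p = 6.38e-04), although it was 0.27 ± 0.07 above IgG (adjusted p = 0.0168, up to 0.106 among the alternatives).

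The IgG precipitate, which shows what the method holds without the antibody to Pum2, was also poor in these mRNAs. All 71 members had a negative difference in IgG over input, and 62 were called lower (87.3%) with 0 higher (limma; 0 higher also at an unadjusted p under 0.05). Of all genes, 9.72% were lower and 8.25% higher, and of genes at or above the median level 17.8% and 13.8%. Over all 3 IgG and 3 input arrays, 68 members had every IgG value below every input value, which 16.2% of all genes had. The median was -0.55, with -0.56 for Mrpl (40 of 43 lower) and -0.50 for Mrps (22 of 28 lower), against 0.02 over all genes. The differences ran from -1.32 (Mrpl54) to -0.16 (Mrpl19), a range of one sign. The comparisons share arrays, so their values are given side by side and not related to each other.

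Mrpl54, particular to mitochondria and placed near the stalk, had 8.21, 8.08 and 8.03 with IgG, against 9.47, 9.50 and 9.32 in input. The gap was -1.32 ± 0.09 (2.5-fold lower, adjusted p = 7.61e-05), and the Pum2 arrays, at 7.72, 7.85 and 8.0, lay close under the IgG arrays (-0.25 ± 0.09, adjusted p = 0.0705). Mrpl14, with a bacterial counterpart, had 7.99, 7.65 and 7.64 with IgG, against 8.92, 8.94 and 8.74 in input (-1.11 ± 0.11, adjusted p = 2.01e-04). Mrpl55 and Mrpl58, a peptidyl-tRNA hydrolase that became a ribosomal protein, fell by 0.98 and 0.87 (adjusted p = 1.80e-04 and 3.81e-04). In Pum2 over IgG, Mrpl14, Mrpl55 and Mrpl58 stood at 0.14, 0.08 and 0.11, none of them called, and both Mrpl55 and Mrpl58 turned negative with quantile normalization run again, and Mrpl55 also after centring.

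Mrps16, the member with the highest signal, had 10.98, 10.88 and 10.94 with Pum2, 10.99, 10.81 and 10.92 with IgG and 11.71, 11.63 and 11.80 in input. The precipitates overlapped with each other and both lay below input, with differences of -0.78 and -0.81 (adjusted p = 3.46e-05 and 1.99e-04). Mrpl39 had 10.62, 10.53 and 10.84 with Pum2, 10.38, 10.23 and 10.32 with IgG and 10.77, 10.66 and 10.88 in input. Mrpl24 had 10.36, 10.23 and 10.55 with Pum2, 10.45, 10.15 and 10.19 with IgG and 10.79, 10.81 and 10.77 in input. Mrpl39 was higher with Pum2 than with IgG (0.35 ± 0.10, adjusted p = 0.0198, up to 0.118 among the alternatives), and Mrpl24 was not called (0.12, adjusted p = 0.452).

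**Figure D3:**
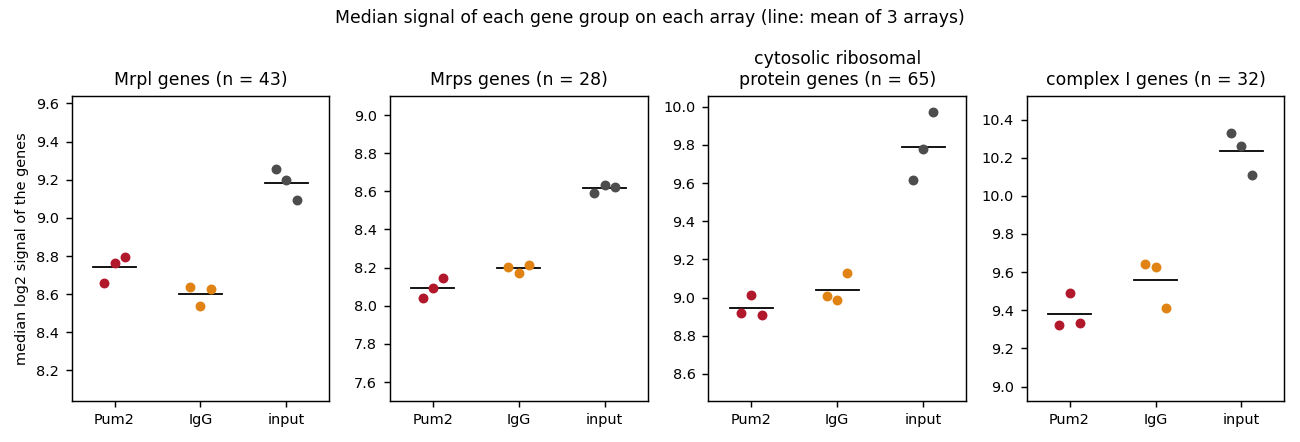
Median log2 signal (vertical axis) of the Mrpl, Mrps, cytosolic ribosomal protein and nuclear-encoded complex I genes on each of the 3 Pum2, 3 IgG and 3 input arrays; lines are means of 3 arrays. Input arrays are the highest in all 4 panels, and the Pum2 arrays lie above the IgG arrays for Mrpl and below them for Mrps genes. A median signal on each array is not the median of the gene differences. In Pum2 over IgG that median was 0.08 for Mrpl and 0.04 for Mrps genes, of which 15 of 28 lay above 0.

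Over the arrays, the median of Mrpl genes was 8.66 to 8.80 with Pum2, 8.54 to 8.64 with IgG and 9.09 to 9.26 in input. For Mrps genes it was 8.04 to 8.15 with Pum2, 8.17 to 8.21 with IgG and 8.59 to 8.63 in input. The array medians of Mrps genes were thus lower with Pum2 than with IgG, although the median of their gene differences was 0.04. The 2 most alike groups of genes were set beside them. Cytosolic ribosomal protein mRNAs gave 4 higher and 30 lower of 65 in Pum2 over IgG (median -0.22), 3 higher and 53 lower of 65 in Pum2 over input (-0.80) and 1 higher and 45 lower of 65 in IgG over input (-0.46). Nuclear-encoded genes of respiratory complex I gave 6 higher and 11 lower of 32 (-0.10), 5 higher and 26 lower of 32 (-0.77) and 0 higher and 26 lower of 32 (-0.73; 0 higher also at an unadjusted p under 0.05). The share called higher than IgG was 26.8% for mitochondrial ribosomal proteins, against 6.15% and 18.8% for these groups, a difference that was not tested. Of all genes 19.4% were higher than IgG, and of genes at or above the median level 34.1%. In both rescalings of the arrays, 14 members were higher and not 19. Of all genes, 11.4% were lower in Pum2 over IgG, 13.1% in Pum2 over input and 9.72% in IgG over input. Transcripts made inside mitochondria, which these ribosomes translate, were lower with Pum2 than with IgG in 10 of 10 cases (median -3.27), but lower with IgG than in input in only 1 of 10 (median -0.04).

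The rest of the mitochondrial translation apparatus gave other counts, whose difference from the ribosomal proteins was not tested. Of all genes, 19.4% were higher and 11.4% lower than with IgG, and 21.6% and 13.1% than in input. Of genes at or above the median level, these shares were 34.1% and 18%, and 37% and 21.9%. In IgG over input, 9.72% of all genes were lower. Of 16 mitochondrial aminoacyl-tRNA synthetases, which charge tRNAs, 9 were higher and 0 lower with Pum2 than with IgG (median 0.29; 0 lower also at an unadjusted p under 0.05), and 8 and 0 against input (0.22). In IgG over input 1 was lower (median -0.05). Sars2 had 9.13, 8.99 and 9.25 with Pum2, 8.30, 8.11 and 8.30 with IgG and 8.33, 8.39 and 8.48 in input, and rose by 0.88 ± 0.09 over IgG (adjusted p = 7.23e-05). Yars2 and Vars2 rose over IgG by 0.85 ± 0.08 and 0.76 ± 0.09, and over input by 0.80 ± 0.08 and 0.64 ± 0.09. Among 20 assembly factors of the mitochondrial ribosome 10 rose and 1 fell against IgG (median 0.30), and 7 and 2 against input (0.20). Tfb1m, which methylates the rRNA of the small subunit, had 9.86, 9.77 and 9.81 with Pum2, 8.89, 8.85 and 8.91 with IgG and 8.94, 8.89 and 8.79 in input (0.93 ± 0.07 over IgG, adjusted p = 1.23e-05). Fastkd2, an RNA-binding factor of large-subunit assembly, was the 1 that fell (-0.58 ± 0.07, adjusted p = 2.06e-04).

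Translation factors gave 2 higher and 3 lower of 12 against IgG (16.7% and 25%, median 0.16). Of all genes 19.4% were higher and 11.4% lower, and of genes at or above the median level 34.1% and 18%. The elongation factor Tufm rose by 0.81 ± 0.09 and Gfm1 by 0.47 ± 0.07, while the initiation factor Mtif2 differed by -0.70 ± 0.13 (adjusted p = 8.06e-05, 5.44e-04 and 0.00212). Genes for the synthesis and upkeep of mitochondrial RNA gave 5 higher and 1 lower of 12 (41.7% and 8.33%, median 0.18). The transcription factor genes Tfb2m and Tfam and the polymerase Polrmt rose by 0.91 ± 0.12, 0.90 ± 0.10 and 0.82 ± 0.07. Over input, Polrmt rose by 1.22 ± 0.07 (adjusted p = 1.50e-06). Of 9 regulators of nuclear genes for mitochondria, 4 were higher (44.4%) and 0 lower than in IgG (0 also at an unadjusted p under 0.05). Gabpa, for a subunit of an ETS factor, rose by 0.28 ± 0.09 (adjusted p = 0.0413), and Nrf1 stood at 0.03 (adjusted p = 0.828). The ETS letters counted in the promoters above are not particular to this factor, and no link between them and these values was tested. The Pum2 mRNA itself, measured by its array signal and not the protein, was 0.30 ± 0.09 above IgG (adjusted p = 0.0314).

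**Figure D4:**
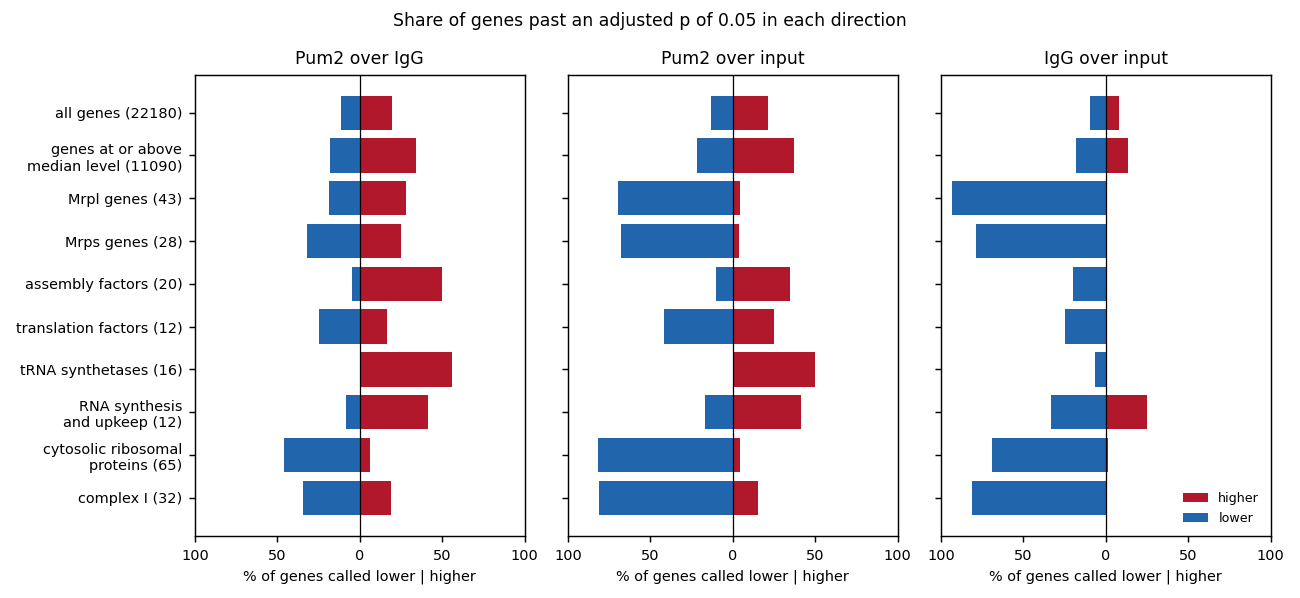
Percent of genes (horizontal axis, right of 0 higher, left of 0 lower) past an adjusted p of 0.05 in each comparison, for all genes, genes at or above the median level and the gene groups named in the text, with the number of genes in brackets. Most Mrpl and Mrps genes are lower than input in both precipitates, 67.9% to 93.0%, while no tRNA synthetase is lower with Pum2.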

How the data were processed

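RNA from Pum2 precipitates, IgG precipitates and input was measured on 9 arrays, 3 in each group, which the labels call biological replicates. The deposited values are log2 signals made by the authors with RMA in Affymetrix Expression Console, per the submitters' processing notes; neither versions nor a genome build are given there. RMA gives no read depth, so the number of arrays limits precision. Rows were named from the platform annotation. Of 41345 rows, 23521 had 1 symbol, 1814 several and 16010 were unnamed here, and rows of several symbols were not used for members. Each of 22180 genes was represented by its row with the highest mean over 9 arrays. The table's RefSeq counterpart holds 78 such genes, of which 7 had no row of their own and are not counted among the 71.

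All comparisons came from 1 limma fit (limma 3.58.1, R 4.3.3) of 9 arrays and 3 groups, with 6 residual and 3.99 prior degrees of freedom and Benjamini-Hochberg adjustment over 22180 genes. A gene was called at an adjusted p under 0.05. Differences are log2 ± SE. An exact permutation test of 3 against 3 arrays cannot give a p under 0.1, so calls rest on the spread that limma shares between genes. On simulated data with 200 changed genes among 22180, log2 changes of 1 were called in 90% of cases in Pum2 over IgG and 87% in Pum2 over input, and changes of 0.5 in 48% and 52%. Each of these 2 comparisons gave 8 false calls. In IgG over input 0 genes were changed in the simulation, with 0 false calls, so no share of changes found is known there. In the real data 30.7% of all genes were called in Pum2 over IgG and 34.7% in Pum2 over input, far more than the simulation changed. The simulated shares therefore need not hold for the real calls.

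Named members are those with the largest called differences whose arrays do not overlap, the highest and lowest signals, the leading genes of each list and a fixed set of members with particular names; Gabpa and Nrf1, for the promoter letters, and Mrpl2 and Mrpl49, to complete a count, were named after their values were seen. The members and lists were chosen with earlier results of these data known. Replicate numbers were checked for pairing. Deviations of same-numbered arrays from their group means correlated at 0.00154 to 0.135, not all above 0.1, so the arrays were treated as unpaired. The alternatives were a replicate block, only the compared arrays, only brighter genes, a trended robust prior, renewed quantile normalization, centring on brighter genes, mean of a gene's rows, all rows tested, another subunit assignment, and leaving out each array. Pumilio motifs in 3′ untranslated regions were not analysed here.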

Additional observations from a re-analysis of the deposited data

Results flagged for a closer look

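Rows outside the members moved both ways in Pum2 over IgG. Of 13 rows of several symbols, 4 were called higher and 3 lower. The row shared by Mrpl44 and Wdfy1 differed by 0.80 ± 0.14 (limma over all rows, adjusted p = 0.00344), that of Actl6a and Mrpl47 by 0.64 ± 0.11 (adjusted p = 0.0036), that of Babam2 and Mrpl33 by 0.63 ± 0.07 (adjusted p = 0.000376) and that of Mrpl43 and Twnk by 0.28 ± 0.09 (adjusted p = 0.0414). Which of the 2 genes gave the signal cannot be told apart. The lower rows were those of Mrpl53 and Ccdc142 (-0.74 ± 0.10, adjusted p = 0.000745), Mrpl30 and Gm6238 (-0.74 ± 0.10, adjusted p = 0.000722) and Mrpl33 and Gm38424 (-0.47 ± 0.10, adjusted p = 0.00864). Mrpl47 has a row of its own, which stood at 0.12 ± 0.09 (adjusted p = 0.363). Among the rows not called, that of Mrps27 and 6430562O15Rik stood at -0.07 ± 0.07 (adjusted p = 0.531), at a dim mean signal of 5.35. That of Nme3 and Mrps34 stood at 0.06 ± 0.08 (adjusted p = 0.644), at a mean signal of 8.78. The rows of Mrps27 and Mrps34 alone were called higher. A second, dimmer row of Mrps16 differed by 0.46 ± 0.10 (adjusted p = 0.00881), where the brighter row used above stood at 0.02 ± 0.08 (adjusted p = 0.874).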

How the results depend on the processing

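Of 36 calls in Pum2 over IgG 26 held under every alternative, of 52 in Pum2 over input 48, and of 62 in IgG over input 51; no called value changed sign. The counts of members called stayed within 1.5 times the main counts. In Pum2 over IgG the medians of all members, Mrpl and Mrps were -0.028, -0.028 and -0.050 with quantile normalization run again and -0.025, -0.013 and -0.053 after centring on brighter genes, and ran from 0.022 to 0.10, 0.042 to 0.10 and -0.066 to 0.074 when single arrays were left out. In Pum2 over IgG, 9 members that were not called turned sign with quantile normalization, 9 with centring and 9 without some array. Among those named, the values were, with quantile normalization, Mrpl55 -0.037, Mrpl58 -0.015, Mrps16 -0.086, Mrpl24 -0.0028, Mrpl19 -0.013, and with centring Mrpl55 -0.010, Mrps16 -0.071, Mrps14 -0.034, Mrpl19 -0.0011. With single arrays left out, Mrpl55 ran from -0.0060 to 0.14, Mrps16 from -0.024 to 0.064, Mrps14 from -0.11 to 0.16 and Mrpl12 from -0.050 to 0.030. In Pum2 over input, Mrpl16, Mrpl45 and Mrps30 stood at -0.022, -0.0076 and -0.057 with quantile normalization and at -0.014, -0.011 and -0.051 with centring. With single arrays left out, Mrpl16 ran from -0.0094 to 0.10, Mrps30 from -0.062 to 0.092, Mrpl46 from -0.035 to 0.0082 and Mrpl37 from -0.084 to 0.018. The cause was not tested. With a replicate block the calls were 20 higher and 16 lower in Pum2 over IgG, 3 and 50 in Pum2 over input, and 0 and 61 in IgG over input; 16 of 18 best matches were with the same number, a hint from the data and not from the design. The 3 arrays a group limit what could be called, and depth is not defined for these signals.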
